A study of Mus musculus with 6 samples.

Results

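The genes described here are the CXCR2-axis neutrophil chemokines, which are the CXC ligands Cxcl1, Cxcl2, Cxcl3, Cxcl5, Ppbp and Pf4 and the receptor Cxcr2. They were chosen by name from the gene list of the deposited matrices, and all 7 were found among its 32285 genes. They were measured in single-cell RNA-Seq of CD45+ cells that were isolated with magnetic beads from B16-F10 tumors, a transplantable mouse melanoma, grown in female C57BL/6 mice of 6 to 10 weeks. The αPD-1 group has 3 samples, from mice that received 150 μg of anti–PD-1 antibody 3 times a week from day 7, and the αPD-1 + corin group, called the combination below, has 3 samples, from mice that received the same antibody and also 200 μg of corin every day from day 6. Corin is a dual inhibitor of the CoREST complex, which joins a histone deacetylase and a histone demethylase. Each arm had 10 mice, and the sources do not say which mice, or how many, gave each sample, so p-values measure the spread between these samples. The question put to the data is in which cells the genes of this axis were read, whether their levels differed between the groups, and how they stood beside the share of neutrophils in each sample.

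CXCR2 is a G protein-coupled receptor of neutrophils, and its ligands are CXC chemokines with an ELR motif that draw neutrophils out of the marrow and into inflamed tissue and tumors. Cxcl1, Cxcl2, Cxcl3 and Cxcl5 are made on demand by stromal and myeloid cells, often under NF-κB, and Ppbp, the precursor of NAP-2 (Cxcl7), is best known from platelets. Pf4 (Cxcl4) lies in the same gene cluster and is also a platelet chemokine, but it lacks the ELR motif and is not a classical CXCR2 ligand.

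The 6 chemokine genes lie on the plus strand within 146.6 kb of mouse chromosome 5 (GRCm39), in the order Cxcl5 at chr5:90907186-90909483, Ppbp at chr5:90916371-90917930, Pf4 at chr5:90918479-90922110, Cxcl3 at chr5:90933962-90937459, Cxcl1 at chr5:91039094-91040974 and Cxcl2 at chr5:91051730-91053797. Cxcr2 lies at chr1:74193150-74200405. All 7 are annotated as protein-coding genes. Transcripts of Cxcl2 and Cxcl3 share an exact run of 110 bases, which starts at base 63 of 1859 in Cxcl2 and at base 57 of 1016 in Cxcl3. This run is longer than the 90-base read and lies near the 5′ end that the kit reads, so reads within it cannot be told apart and the counts of these paralogs are uncertain. The longest run that Cxcl1 shares with either of them is 23 bases.

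Promoters were read from RefSeq (GRCm38.p6), of which the table used here held 6 of the 7 genes, without Cxcl5. They are shown because Cxcl1, Cxcl2 and Cxcl3 hold the letters of NF-κB sites (GGG, any 3 bases, TTCC), on either strand, close to the start, while Ppbp and Pf4 do not. Each stretch runs from 110 to 31 bases before the start, on the plus strand, and capitals mark the matches, some of which overlap on opposite strands.
Cxcl1 (chr5:90891135-90891214): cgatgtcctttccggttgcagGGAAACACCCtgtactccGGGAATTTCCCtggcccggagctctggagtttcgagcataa
Cxcl2 (chr5:90903789-90903868): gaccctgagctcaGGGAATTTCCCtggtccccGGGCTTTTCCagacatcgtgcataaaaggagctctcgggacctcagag
Cxcl3 (chr5:90785991-90786070): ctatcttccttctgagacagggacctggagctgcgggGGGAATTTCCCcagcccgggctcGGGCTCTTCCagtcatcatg
Ppbp (chr5:90768408-90768487): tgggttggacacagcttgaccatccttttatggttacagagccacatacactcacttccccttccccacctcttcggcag
Pf4 (chr5:90772325-90772404): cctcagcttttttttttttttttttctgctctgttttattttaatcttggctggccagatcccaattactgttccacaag
Cxcl1, Cxcl2 and Cxcl3 held 3 matches each in their 300-base promoters, within 97 to 50 bases before the start. Of all 32851 promoters of the table, 5.56% held at least 1 match. Ppbp, Pf4 and Cxcr2 held none in this window. The letters TATAAA were found in Cxcl3 and Ppbp (13.6% of all promoters), TGANTCA in Ppbp (7.81%), and TTGCNNAA and AGATAA in Pf4 (10.8% and 11.2%), in the 300-base promoters outside the printed stretches, with both strands searched. A match describes letters only.

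The samples held between 52281422 and 84276739 UMIs in 52899 barcodes, of which 28865 were kept as cells and fell into 25 clusters, and 299 barcodes occurred in more than 1 sample. Classes took their names from lists of markers, so a name stands for resemblance to that type. All 11 neutrophil, 10 macrophage, 9 monocyte, 8 fibroblast and 8 melanoma markers were higher in the class of that name than in the other named cells. Fibroblasts and melanoma cells are not expected in a CD45+ isolation and numbered 985 and 1882. T cells were taken as clusters 13 and 17. Cluster 4, which was led by Gzmb, Gzmc and Prf1 and had all 8 T cell markers, is called the granzyme cluster and was kept apart, since Prf1 of the NK list and no gene of the T list was among its 10 leading genes. αPD-1 + corin replicate 3 stands apart from replicates 1 and 2 for several of the genes, and values without it are given beside those results. It was singled out from these same values, so the fits without it describe its weight and support no difference. Without it 22.3% of 11655 genes passed the edgeR test in macrophages, 7.17% of 7907 in monocytes and 0.0794% of 8811 in melanoma cells. With all samples 0.243%, 1.73% and 0% passed.

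Neutrophils numbered 16, 10 and 14 cells under αPD-1 alone (replicates 1 to 3) and 460, 1057 and 80 cells under the combination. They made up 0.384%, 0.283% and 0.343% of kept immune cells under αPD-1 alone and 6.98%, 29.9% and 2.01% under the combination. The means were 0.337% ± 0.0509 (SD, n = 3) and 12.96% ± 14.9 (SD, n = 3), without overlap between the groups (two-sided exact permutation test, p = 0.1, the smallest that 3 samples against 3 allow). Within the αPD-1 + corin group the share was highest in replicate 2 and lowest in replicate 3. Neutrophils hold few transcripts, and with a lower limit of 200 genes per cell in place of 600 the shares were 15.4%, 45.7% and 6.72% under the combination and at most 0.483% under αPD-1 alone. The neutrophil sums of the αPD-1 samples rest on few cells, and 3 UMIs there were worth between 59.96 and 93.57 CPM, the UMIs of a gene scaled to the total UMIs of the class in that sample.

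**Figure D1:**
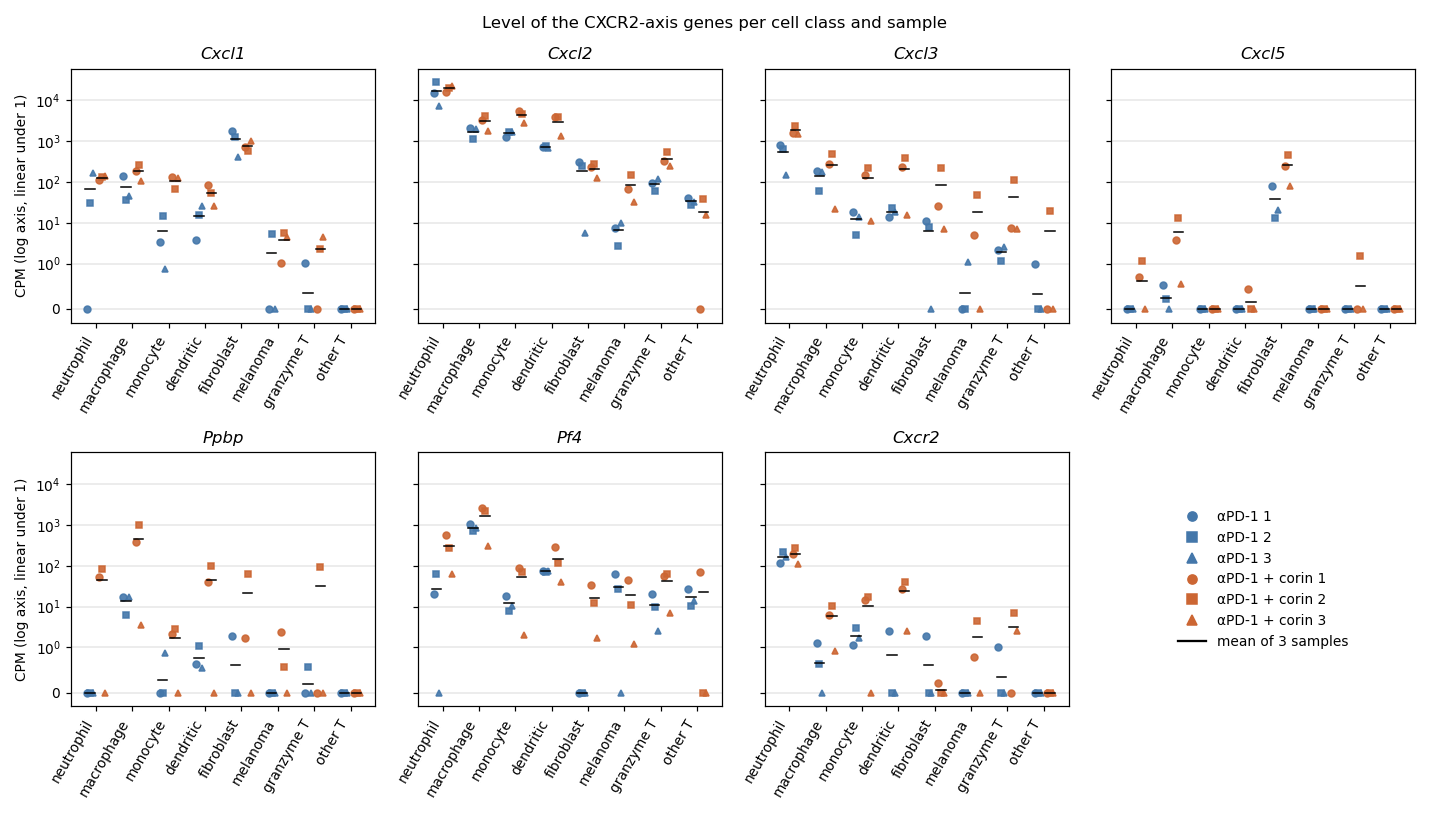
Level of each gene in 8 cell classes, in CPM of the UMIs summed over the cells of a class in a sample, on a log axis that is linear under 1. Each point is 1 sample, marked by group and replicate, and black bars are means of 3 samples; Cxcl2, Cxcl3 and Cxcr2 are highest in neutrophils, Cxcl1 and Cxcl5 in fibroblasts, and Ppbp and Pf4 in macrophages.

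Cxcl1, an ELR chemokine of stromal and myeloid cells, had its highest level in fibroblasts, with 1746, 1267 and 411 CPM under αPD-1 alone and 734, 580 and 1016 CPM under the combination. The groups overlapped, and the fitted log2 fold change was −0.57 (SE 0.45, edgeR quasi-likelihood test, adjusted p = 0.447). Over all 6 samples the mean was 959 ± 492 CPM in fibroblasts, 128 ± 83.1 CPM in macrophages and 97.4 ± 66.7 CPM in neutrophils (SD, n = 6). The neutrophil values of the αPD-1 samples came from 0, 1 and 7 UMIs and cannot be ordered against macrophages.

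Cxcl1 passed the test between the groups in monocytes. It had 3.40, 14.7 and 0.869 CPM in the monocytes of the αPD-1 samples, from 3, 15 and 1 UMIs, and 132, 66.3 and 124 CPM in those under the combination, from 120, 23 and 124 UMIs. The groups did not overlap, and Cxcl1 rose there by 4.17 ± 0.44 (log2 fold change ± SE, edgeR, adjusted p = 0.000412). After each cell was thinned to 500 UMIs, 0.285% ± 0.493 (SD, n = 3) of monocytes under αPD-1 alone and 2.47% ± 1.42 (SD, n = 3) under the combination had a Cxcl1 UMI (unthinned, 0.923% and 7.81%), so few of the cells held it. No Cxcl1 UMI was found in T cells, thinned or unthinned, at a median depth of 1813 UMIs per cell against 3382 in monocytes. T cells numbered only 10, 23 and 38 under the combination, and in the granzyme cluster the unthinned shares were 0.201% and 0.801%.

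In macrophages Cxcl1 had 138, 36.3 and 46.3 CPM under αPD-1 alone and 185, 253 and 107 CPM under the combination. αPD-1 replicate 1 lay above αPD-1 + corin replicate 3, and the log2 fold change of 1.46 (SE 0.50) did not pass the test (edgeR, adjusted p = 0.218). Without αPD-1 + corin replicate 3 it was 1.73 (edgeR, adjusted p = 0.0171), in a fit that called 2598 of 11655 genes.

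Cxcl2, also known as MIP-2, is a chemokine that myeloid cells release on stimulation, and it was read in all 7 classes tested. Neutrophils of the αPD-1 samples had 14790, 28694 and 7281 CPM and those under the combination 16405, 20324 and 21880 CPM. The αPD-1 samples spanned the values of the αPD-1 + corin samples, and the log2 fold change was 0.31 (SE 0.45, edgeR, adjusted p = 0.861). Thinned to 500 UMIs, 97.3% ± 1.32 (SD, n = 3) of neutrophils under the combination had a Cxcl2 UMI (unthinned, 99.6%), at a median depth of 2675 UMIs. In T cells, which should lack the gene, the thinned share was 1.06% under αPD-1 alone and 0 under the combination, where only 71 T cells were kept. In the granzyme cluster it was 2.38% and 6.08% (unthinned, 7.23% and 18.3%).

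In monocytes Cxcl2 had 1280, 1705 and 1721 CPM under αPD-1 alone and 5497, 4668 and 2817 CPM under the combination. Every αPD-1 + corin sample lay above every αPD-1 sample. Cxcl2 rose there by 1.48 ± 0.19 (log2 fold change ± SE, edgeR, adjusted p = 0.00267). The thinned share of monocytes with a Cxcl2 UMI was 23.8% ± 2.69 (SD, n = 3) under αPD-1 alone and 53.8% ± 13.5 (SD, n = 3) under the combination (unthinned, 40.4% and 70.1%).

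In macrophages the Cxcl2 levels were 2050, 1139 and 1969 CPM under αPD-1 alone and 3280, 4122 and 1769 CPM under the combination. Replicate 3 of the αPD-1 + corin group lay among the αPD-1 samples, and the log2 fold change of 0.98 (SE 0.34) did not pass the test (edgeR, adjusted p = 0.218). Without that replicate it was 1.26 (edgeR, adjusted p = 0.00622). Macrophages of the groups also came from different clusters, as described for Ppbp and Pf4, and without the cluster led by Ppbp and Ccl24 the log2 fold change was 0.97 (edgeR, adjusted p = 0.232). Dendritic cells, for which no test was planned, had 723, 754 and 689 CPM under αPD-1 alone and 3796, 3881 and 1304 CPM under the combination. Their sums of S100a8 and S100a9, which are on the list of neutrophil markers, were 176, 33.3 and 10.5 CPM and 3019, 3890 and 205 CPM in the same order. The part of neutrophil RNA in the Cxcl2 values was not tested.

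The granzyme cluster had far less Cxcl2 than the myeloid classes, with 93.0, 59.9 and 121 CPM under αPD-1 alone and 323, 532 and 242 CPM under the combination. Cxcl2 rose there by 2.10 (log2, SE 0.28, edgeR, adjusted p = 0.00450). Neutrophil markers moved with it, as given below, and the rise no longer passed the test without the cells that held an S100a8 or S100a9 UMI (1.2, edgeR, adjusted p = 0.108). Melanoma cells had 7.58, 2.66 and 9.66 CPM under αPD-1 alone, from 6, 1 and 9 UMIs, and 67.0, 150 and 33.1 CPM under the combination. The groups did not overlap, and the log2 fold change of 3.42 (SE 0.59) did not pass the test (edgeR, adjusted p = 0.468), although it passed by DESeq2 (adjusted p = 0.0209) and without αPD-1 + corin replicate 3 (3.80, edgeR, adjusted p = 9.14e-05). Cxcl2 would not have met the low-count filter's limit in melanoma cells of the αPD-1 samples alone. Neutrophil markers rose in the same cells, as given below, and the part of neutrophil RNA was not tested. Fibroblasts had 314, 243 and 5.70 CPM under αPD-1 alone and 227, 277 and 123 CPM under the combination, with overlap (0.09, edgeR, adjusted p = 0.947). In T cells the log2 fold change was −0.63 (edgeR, adjusted p = 0.894), from 3 UMIs under the combination, and its sign turned at resolution 1.2 and with other filters on cells.

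Cxcl3, the close paralog of Cxcl2, had its highest level in neutrophils as well. It had 819, 624 and 145 CPM there under αPD-1 alone, from 41, 20 and 6 UMIs, and 1587, 2413 and 1467 CPM under the combination, from 2237, 10457 and 347 UMIs. The groups did not overlap, but the log2 fold change of 1.89 (SE 0.46) did not pass the test (edgeR, adjusted p = 0.108), and it passed by DESeq2 (adjusted p = 0.0146). The thinned share of neutrophils with a Cxcl3 UMI was 15.3% ± 7.09 (SD, n = 3) under αPD-1 alone and 42.6% ± 10.2 (SD, n = 3) under the combination (unthinned, 25.2% and 68.8%). In T cells, few under the combination, it was 0 (unthinned, 0.0650% and 1.45%), and in the granzyme cluster 0.330% and 0.667%. Of the 1237 neutrophils of the αPD-1 + corin samples with a Cxcl3 UMI, 1235 also had a Cxcl2 UMI, as did 1588 of all 1597 neutrophils there.

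Macrophages had 184, 60.1 and 179 CPM of Cxcl3 under αPD-1 alone and 270, 492 and 21.9 CPM under the combination. The lowest and the highest value were both from αPD-1 + corin samples (1.04, SE 0.84, edgeR, adjusted p = 0.526, and 1.59 without replicate 3, adjusted p = 0.0178). Monocytes had 18.1, 4.91 and 13.9 CPM under αPD-1 alone and 148, 222 and 11.01 CPM under the combination. The log2 fold change of 3.20 (SE 0.76) missed the threshold (edgeR, adjusted p = 0.0527). It was 3.86 without αPD-1 + corin replicate 3 (edgeR, adjusted p = 2.81e-06) and 0.77 without the cells that held an S100a8 or S100a9 UMI (edgeR, adjusted p = 0.551).

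Markers of neutrophils were read in the other classes too, and more so under the combination. They do not stand for neutrophil RNA alone, since 3 of the 11 also met the rule for a marker in the monocyte cluster. In each of the macrophage clusters led by Mmp12 and by Ppbp 2 of them did. The summed level of the 11 neutrophil markers ran from 490 to 605 CPM in the monocytes of the αPD-1 samples and from 1181 to 4374 CPM in those under the combination. The corresponding ranges were 353 to 458 and 737 to 1779 CPM in macrophages, 104 to 114 and 152 to 979 CPM in the granzyme cluster, 45.0 to 152 and 78.2 to 469 CPM in fibroblasts, 7.51 to 21.5 and 23.4 to 336 CPM in melanoma cells, and 27.5 to 73.9 and 92.7 to 347 CPM in T cells. Between 0 and 3 of the 11 markers were at 0 in a monocyte sum, and up to 8 in the others. Of the monocyte sums, S100a8 and S100a9 together gave 12.5, 7.85 and 42.6 CPM under αPD-1 alone and 3377, 1845 and 431 CPM under the combination. S100a8 or S100a9, which encode the chains of calprotectin, was found in 2.56% to 4.02% of monocytes of the αPD-1 samples and in 38.1%, 34.8% and 18.1% of those under the combination. When these cells were left out of every class but neutrophils, an alternative chosen after seeing the data, the rise in monocytes passed the test for Cxcl1 (4.47, edgeR, adjusted p = 0.000410) and for Cxcl2 (1.16, edgeR, adjusted p = 0.0193). The ratio of Cxcl2 to S100a8 plus S100a9 UMIs also differed between classes of 1 sample, for example 0.806 in the granzyme cluster and 0.962 in fibroblasts of αPD-1 + corin replicate 2, and 6.21 and 1.95 in replicate 1. With few S100a8 and S100a9 UMIs the ratio is uncertain, as with the 14 in the granzyme cluster of replicate 1. How much of each level came from neutrophil RNA was not tested beyond these values.

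Cxcl5, an ELR chemokine of stromal and epithelial cells, was read mainly in fibroblasts among the kept cells. Barcodes that did not pass the filters held 13.2%, 93.3% and 82.1% of its UMIs under αPD-1 alone and 40.1%, 88.6% and 72.9% under the combination, and the cells behind these were not analysed. Fibroblasts had 81.8, 13.2 and 20.0 CPM under αPD-1 alone, from 44, 5 and 7 UMIs, and 248, 447 and 80.0 CPM under the combination, from 1150, 286 and 92 UMIs. αPD-1 replicate 1 reached the level of αPD-1 + corin replicate 3. Cxcl5 rose there by 2.64 ± 0.63 (log2 fold change ± SE, edgeR, adjusted p = 0.0471), close to the threshold. The call was lost by DESeq2 (adjusted p = 0.0648), without an upper limit on genes per cell (edgeR, adjusted p = 0.154), without doublet removal (edgeR, adjusted p = 0.0504), without the cells that held an S100a8 or S100a9 UMI (edgeR, adjusted p = 0.0517) and when any 1 sample other than αPD-1 + corin replicate 3 was left out (edgeR, adjusted p from 0.0513 to 0.186). Thinned to 500 UMIs, 1.77% ± 1.64 (SD, n = 3) and 7.19% ± 2.73 (SD, n = 3) of fibroblasts had a Cxcl5 UMI, at a median depth of 7475 UMIs. Fibroblasts numbered 62, 37 and 48 under αPD-1 alone and 611, 79 and 148 under the combination. Monocytes, melanoma cells, B cells and T cells had no Cxcl5 UMI in any sample, where 3 UMIs in a library were worth between 2.61 and 8.65 CPM in monocytes. Macrophages had at most 13.3 CPM. Of the fibroblasts of the αPD-1 + corin samples with a Cxcl5 UMI, 85.5% also had a Cxcl1 UMI, and 33.2% of those with a Cxcl1 UMI had one of Cxcl5. Among all 838 fibroblasts there, 461 had a Cxcl1 UMI and 179 a Cxcl5 UMI.

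Ppbp and Pf4 were read mainly in macrophages. Ppbp had 17.4, 6.23 and 16.8 CPM there under αPD-1 alone and 387, 1006 and 3.53 CPM under the combination. Replicates 1 and 2 of the αPD-1 + corin group lay far above the αPD-1 samples and replicate 3 lay below them, and the log2 fold change of 5.29 (SE 1.43) did not pass the test (edgeR, adjusted p = 0.17). It passed by DESeq2 (adjusted p = 0.0352), and without replicate 3 it was 5.88 (edgeR, adjusted p = 5.74e-05), in a fit that called 22.3% of 11655 genes. Pf4 had 1065, 717 and 828 CPM under αPD-1 alone and 2583, 2147 and 300.3 CPM under the combination. The same replicate lay below all αPD-1 samples (1.10, SE 0.61, edgeR, adjusted p = 0.367), and without it the log2 fold change was 1.60 (edgeR, adjusted p = 0.000678).

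The macrophages fell into 5 clusters, and the members were left out of the variable genes that formed them. Cluster 5, led by Ppbp, Ccl24, Arg1 and Pf4, held 28, 14 and 61 cells of the αPD-1 samples and 1412, 372 and 20 cells of the αPD-1 + corin samples. It made up 3.31%, 1.64% and 8.27% of macrophages under αPD-1 alone and 32.6%, 31.6% and 1.57% under the combination. It held 87.6%, 86.7% and 84.2% of the macrophage Ppbp UMIs of the αPD-1 + corin samples, but between 6.90% and 59.2% under αPD-1 alone, where the cluster led by Mmp12 and Lgals3 held most of the rest. Within cluster 5, Ppbp had 111, 21.7 and 114 CPM under αPD-1 alone, from 17, 2 and 29 UMIs, and 1059, 2613 and 140 CPM under the combination, from 5594, 5583 and 16 UMIs. The 84.2% of αPD-1 + corin replicate 3 is thus 16 of 19 UMIs, and the 6.90% of αPD-1 replicate 2 is 2 of 29. Pf4 did not follow the same split, with 4607, 2513 and 2613 CPM in cluster 5 of the αPD-1 samples and 4354, 3778 and 1160 CPM in that of the αPD-1 + corin samples. The cluster led by Lyve1 and Fcna, markers of resident macrophages, had between 784 and 2151 CPM of Pf4 and at most 201 CPM of Ppbp. Without cluster 5 the log2 fold change of Ppbp in macrophages was 3.48 (edgeR, adjusted p = 0.252) and that of Pf4 was 0.72 (edgeR, adjusted p = 0.509).

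**Figure D2:**
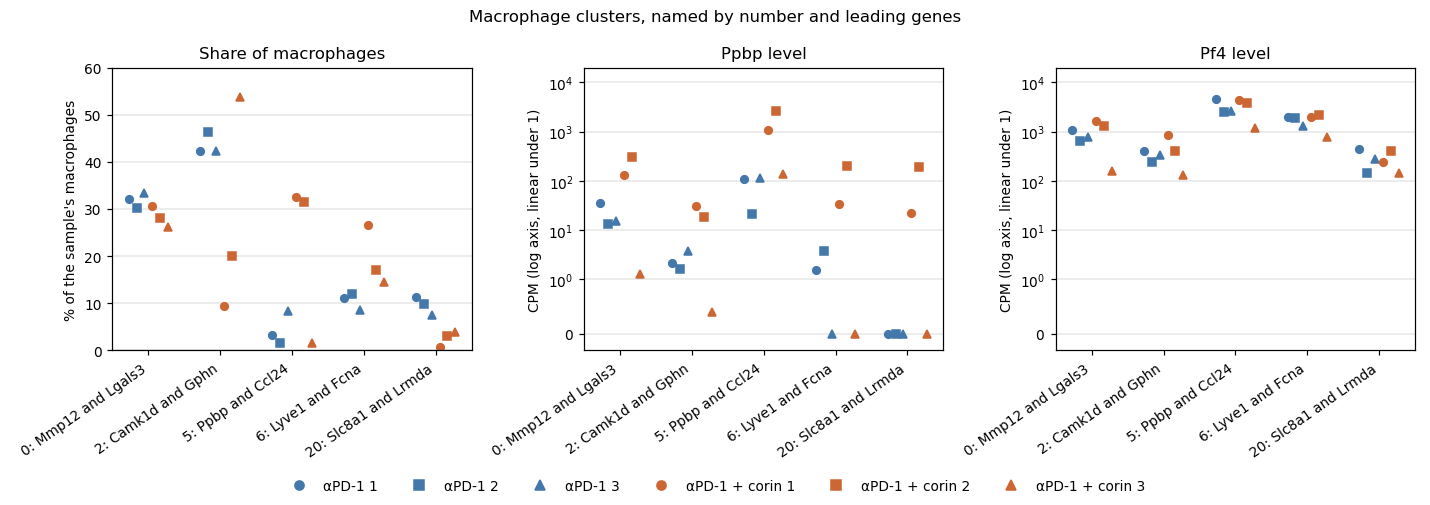
Share of each macrophage cluster among the macrophages of a sample in percent, and the levels of Ppbp and Pf4 in each cluster in CPM on a log axis that is linear under 1. Each point is 1 sample. Cluster 5 made up 32.6% and 31.6% of macrophages in αPD-1 + corin replicates 1 and 2 and at most 8.27% in the other samples. Ppbp is its leading gene, and its Ppbp level was the highest in every sample, from only 2 UMIs in αPD-1 replicate 2.

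Ppbp and Pf4 are also abundant platelet transcripts, so platelet markers were read beside them. The 8 platelet markers summed to between 1.03 and 2.63 CPM in the macrophages of the αPD-1 samples and between 3.34 and 4.53 CPM in those under the combination. In cluster 5 all 8 were at 0 under αPD-1 alone and in αPD-1 + corin replicate 3, and they summed to 3.60 and 5.62 CPM in replicates 1 and 2. The sums at 0 held only 28, 14, 61 and 20 cells, too few to show levels this low, so no contrast can be drawn. Of the 825 macrophages of the αPD-1 + corin samples with a Ppbp UMI, 97.7% also had a Pf4 UMI, while 16.9% of the 4780 with a Pf4 UMI had one of Ppbp. All macrophages there numbered 6789, so most of them had a Pf4 UMI. In neutrophils Ppbp had no UMI under αPD-1 alone and 52.5, 83.8 and 0 CPM under the combination, which lies near or under what 3 UMIs were worth under αPD-1 alone, so no fold is given. Thinned shares of neutrophils with a Pf4 UMI were 2.08% and 6.95%, the first from 1 of 16 cells in αPD-1 replicate 1 and 0 in the other αPD-1 samples. In T cells they were 0.592% and 0, but unthinned 1.36% and 3.33%, from only 10, 23 and 38 T cells under the combination. The granzyme cluster had 0.732% and 1.87% thinned and 3.24% and 7.05% unthinned. Unthinned shares of neutrophils were 5.42% and 19.3%. Under αPD-1 alone Pf4 in neutrophils thus cannot be told clearly from such a background. Under the combination the thinned shares were 13.3%, 6.34% and 1.25% in neutrophils and 2.47%, 2.86% and 0.290% in the granzyme cluster. The source of these UMIs was not tested.

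Cxcr2, the receptor, had its highest level in neutrophils, with 120, 218 and 169 CPM under αPD-1 alone, from 6, 7 and 7 UMIs, and 200, 276 and 110 CPM under the combination, from 282, 1197 and 26 UMIs. The groups overlapped (0.43, SE 0.46, edgeR, adjusted p = 0.795). Thinned to 500 UMIs, 18.6% ± 11.4 and 11.1% ± 4.21 (SD, n = 3 each) of neutrophils had a Cxcr2 UMI. The first share rests on 3, 3 and 1 cells. Thinned to 1000 UMIs the shares were 17.9% and 20.7%, and unthinned 36.6% and 38.0%. In T cells, few under the combination, the share at 500 UMIs was 0, and in the granzyme cluster it was 0 and 0.0323%. Of the 763 neutrophils of the αPD-1 + corin samples with a Cxcr2 UMI, 758 also had a Cxcl2 UMI, as did 1588 of all 1597 neutrophils there. Outside neutrophils Cxcr2 reached at most 17.3 CPM in monocytes and 10.3 CPM in macrophages, in αPD-1 + corin replicate 2, and 40.2 CPM in dendritic cells of the same sample. Neutrophil markers were also read in these classes, as given above, and the part of neutrophil RNA in the Cxcr2 values was not tested.

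Among the 7 classes tested between the groups, the order was tested over the 6 samples for the 3 highest classes of each gene, with log2(CPM + 10), by two-sided exact sign-flip permutation tests, which cannot go below p = 0.0312. Neutrophils exceeded monocytes in Cxcl2 by 2.72 ± 0.96 (SD, n = 6) on this scale, and in Cxcr2 by 3.62 ± 0.37. Fibroblasts exceeded macrophages in Cxcl1 by 2.92 ± 1.27 and in Cxcl5 by 2.92 ± 1.30, and macrophages exceeded neutrophils in Pf4 by 3.67 ± 1.74 and in Ppbp by 1.69 ± 1.16. Each of these held in 6 of 6 samples (exact permutation p = 0.0312, adjusted p = 0.0625 over 14 tests), so none passed after adjustment. For Cxcl3, neutrophils exceeded macrophages by 2.55 ± 1.88 in 5 of 6 samples (exact permutation p = 0.0625, adjusted p = 0.0972). Monocytes and macrophages did not differ beyond their spread in Cxcl2 (0.22 ± 0.56, exact permutation p = 0.438), and neither did macrophages and neutrophils in Cxcl1 (0.60 ± 1.85, exact permutation p = 0.562). Dendritic cells were not in these tests, and their mean levels over the 6 samples lay above those of monocytes in Cxcr2 (12.2 against 6.23 CPM), Cxcl3 (116 against 69.7 CPM) and Pf4 (111 against 32.9 CPM) and beside those of neutrophils in Ppbp (23.1 against 22.7 CPM).

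**Figure D3:**
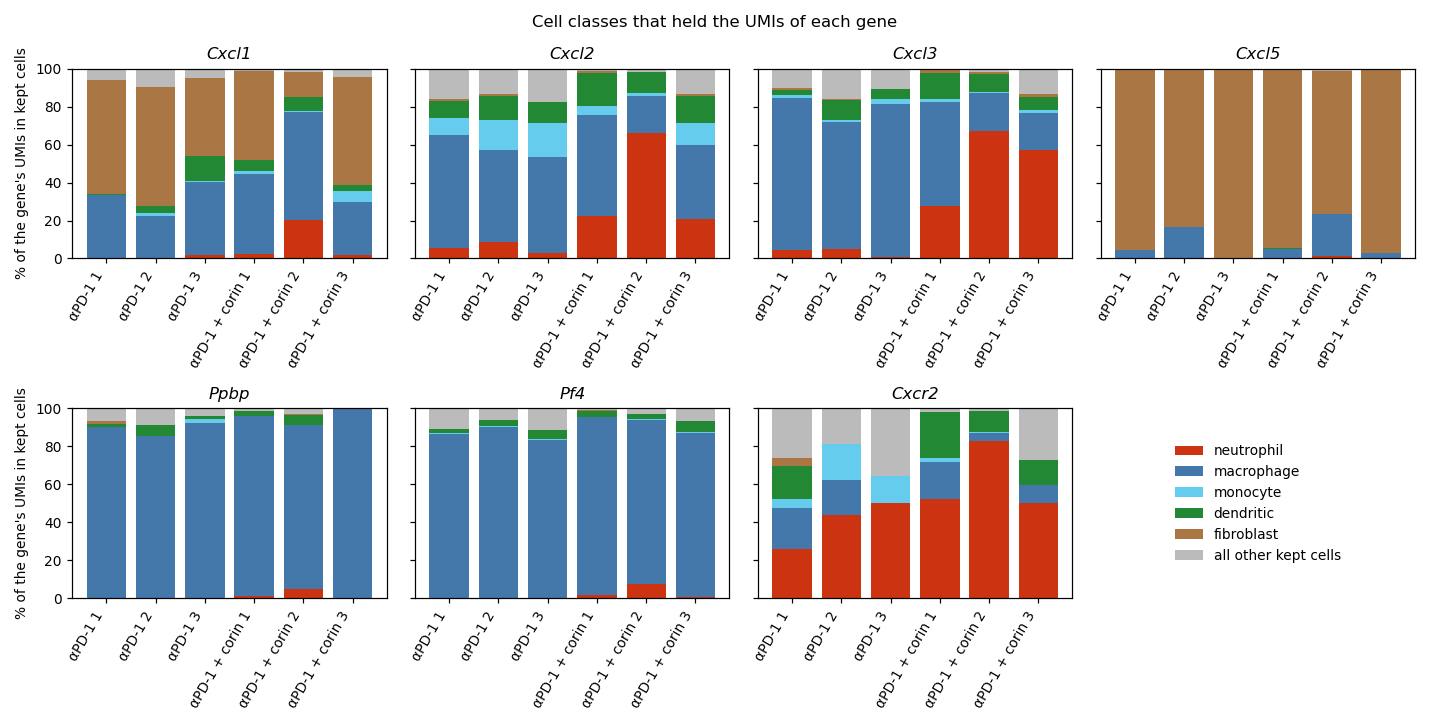
Share of each gene's UMIs in kept cells that each cell class held, in percent, as 1 stacked bar per sample. Neutrophils held 22.6%, 66.01% and 21.0% of Cxcl2 UMIs under the combination and at most 8.45% under αPD-1 alone, while fibroblasts held most of Cxcl5 and macrophages most of Ppbp and Pf4 in every sample.

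The cells that held the UMIs changed with the makeup of the samples. Macrophages held 53.4% of the Cxcl2 UMIs of kept cells pooled over the αPD-1 samples and 34.6% of those over the αPD-1 + corin samples, whereas neutrophils held 5.57% and 44.7%. For Cxcl3 the neutrophil share was 3.45% and 53.5%. Per sample it was 4.68%, 4.78% and 0.924% in the αPD-1 group and 27.6%, 66.9% and 57.0% in the αPD-1 + corin group, without overlap. Cxcl1 was divided between fibroblasts, with 58.2% and 40.8%, and macrophages, with 30.8% and 43.3%. The pooled order under the combination came from replicate 2, in which fibroblasts held 12.99% and macrophages 56.8%, while fibroblasts held more than macrophages in replicates 1 and 3 (47.2% against 42.4% and 56.8% against 27.9%). Fibroblasts held 94.9% and 90.3% of Cxcl5, from 59 and 1693 UMIs. Macrophages held 90.0% and 90.5% of Ppbp and 87.0% and 91.8% of Pf4. Neutrophils held 37.7% of the 53 Cxcr2 UMIs of the αPD-1 samples and 73.8% of the 2038 of the αPD-1 + corin samples. Barcodes that did not pass the filters are not counted in these shares, and they held between 12.5% and 93.3% of a gene's UMIs in a sample.

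Summed over all deposited barcodes of a sample, with no filter on cells, the level of a gene reflects the number of cells of a type and the RNA per cell, which cannot be told apart. Cxcl2 had 311, 295 and 234 CPM under αPD-1 alone and 2054, 3129 and 617 CPM under the combination. Cxcr2 had 0.630, 0.421 and 0.486 CPM against 15.3, 36.1 and 2.32 CPM, and Cxcl5 had 0.928, 1.70 and 0.612 CPM against 26.0, 39.7 and 4.35 CPM. The groups did not overlap in these 3 genes, and they rose by 2.84 (SE 0.56), 5.17 (SE 1.00) and 4.49 (SE 0.87) on the log2 scale (edgeR, adjusted p = 0.0477, 0.0469 and 0.0474), close to the threshold. Cxcl1 and Cxcl3 did not overlap either and did not pass the test (1.62 and 3.85, edgeR, adjusted p = 0.142 and 0.0805). Ppbp had 1.58, 0.823 and 1.11 CPM against 98.7, 108 and 0.347 CPM, and Pf4 had 107, 104 and 57.5 CPM against 666, 246 and 29.3 CPM, both with αPD-1 + corin replicate 3 below the αPD-1 samples (edgeR, adjusted p = 0.113 and 0.288). Of the 7 genes, 3 passed, all higher, in a comparison that called 4.13% of 18366 genes. None of the 7 passed with RLE size factors or when 1 sample other than αPD-1 + corin replicate 3 was left out. By DESeq2 6 passed, where 13.1% of all genes did, and without αPD-1 + corin replicate 3 6 passed, where 13.2% of 18651 genes did.

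Within the classes, the members that passed the low-count filter are set beside all genes tested there, as a description. In monocytes Cxcl1 and Cxcl2 passed of 4 members tested, against 1.73% of 7643 genes, and both were higher. Of these 4 only Cxcl2 would have met the filter's limit in the αPD-1 samples alone, so Cxcl1, Cxcl3 and Pf4 entered through the samples in which they were high and their number supports nothing. In fibroblasts 1 of 3 passed, against 2.08% of 6882 genes, and Cxcl5, the one that passed, and Cxcl2 entered in the same way. In the granzyme cluster Cxcl2 passed of 2 tested, against 0.277% of 8650 genes, and it met the limit in the αPD-1 samples alone, whereas Pf4 did not. In neutrophils 0 of 4 passed, against 0.176% of 2271 genes. There 1 member had an unadjusted p under 0.05, as did 11.9% of all genes, and 1 (Cxcl3) passed by DESeq2, as did 2.20%. In macrophages 0 of 5 passed, against 0.243% of 11514 genes, and all 5 met the limit in the αPD-1 samples alone. There 3 members had an unadjusted p under 0.05, as did 17.7% of all genes, 1 (Ppbp) passed by DESeq2, as did 2.22%, and without αPD-1 + corin replicate 3 all 7 passed, as did 22.3% of 11655 genes. Cxcl5 and Cxcr2, which are not among the 5, had means of 0.247 and 0.653 CPM in macrophages under αPD-1 alone. The filter's limit in the fit of all samples was 1.99 CPM. They entered through the samples in which they were high, so a count of 7 supports nothing. In melanoma cells 0 of 2 passed, as did 0% of 9464 genes by edgeR, with 679 genes at an unadjusted p under 0.05 and 7 genes, Cxcl2 among them, by DESeq2. Neither of these 2 members would have met the limit in the αPD-1 samples alone. In T cells the 1 member tested did not pass by edgeR or DESeq2 or at an unadjusted p under 0.05, against 1.34% of 5376 genes.

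Whether the difference between the groups was itself different between cell classes was tested as an interaction in edgeR, with the sample as a block. The difference in Cxcl3 was larger in monocytes than in macrophages by 2.38 (log2, SE 0.26, edgeR, adjusted p = 0.000764), in a test that called 0.0781% of 10243 genes. In the αPD-1 samples Cxcl3 in monocytes was a small fraction of that in macrophages, and under the combination it lay closer to it, with 148 against 270, 222 against 492 and 11.01 against 21.9 CPM. Without the cells that held an S100a8 or S100a9 UMI the difference was 0.78 (edgeR, adjusted p = 0.790). Against macrophages, neutrophils showed a larger difference in Cxcl3 (1.98, SE 0.40, edgeR, adjusted p = 0.000494) and in Pf4 (3.16, SE 0.72, edgeR, adjusted p = 0.00471), in a test that called 1.08% of 11500 genes. The first fell to 1.04 without αPD-1 + corin replicate 3 (edgeR, adjusted p = 0.171) and to 1.18 without αPD-1 replicate 3 (edgeR, adjusted p = 0.324). With any other sample left out it ran from 2.04 to 2.70 (edgeR, adjusted p from 0.000147 to 0.0106). It was 2.41 without the macrophages that held an S100a8 or S100a9 UMI (edgeR, adjusted p = 4.58e-06). The second rests on 1, 2 and 0 Pf4 UMIs in the neutrophils of the αPD-1 samples. It did not pass with RLE size factors (adjusted p = 0.0555) or without αPD-1 replicate 1 or 3 (edgeR, adjusted p = 0.203 and 0.158). Cxcl2 did not pass in neutrophils (0.10, edgeR, adjusted p = 0.922) or in monocytes (0.48, edgeR, adjusted p = 0.627). For Cxcr2 the neutrophil minus macrophage difference was −2.29 (SE 0.66) and missed the threshold (edgeR, adjusted p = 0.0516). It passed with RLE size factors (−2.72, adjusted p = 0.0135), without αPD-1 replicate 1 (−3.52, adjusted p = 0.0187) and without αPD-1 + corin replicate 3 (−2.45, adjusted p = 0.0221), all in edgeR, and was 0.52 without the cells that held an S100a8 or S100a9 UMI (edgeR, adjusted p = 0.881).

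**Figure D4:**
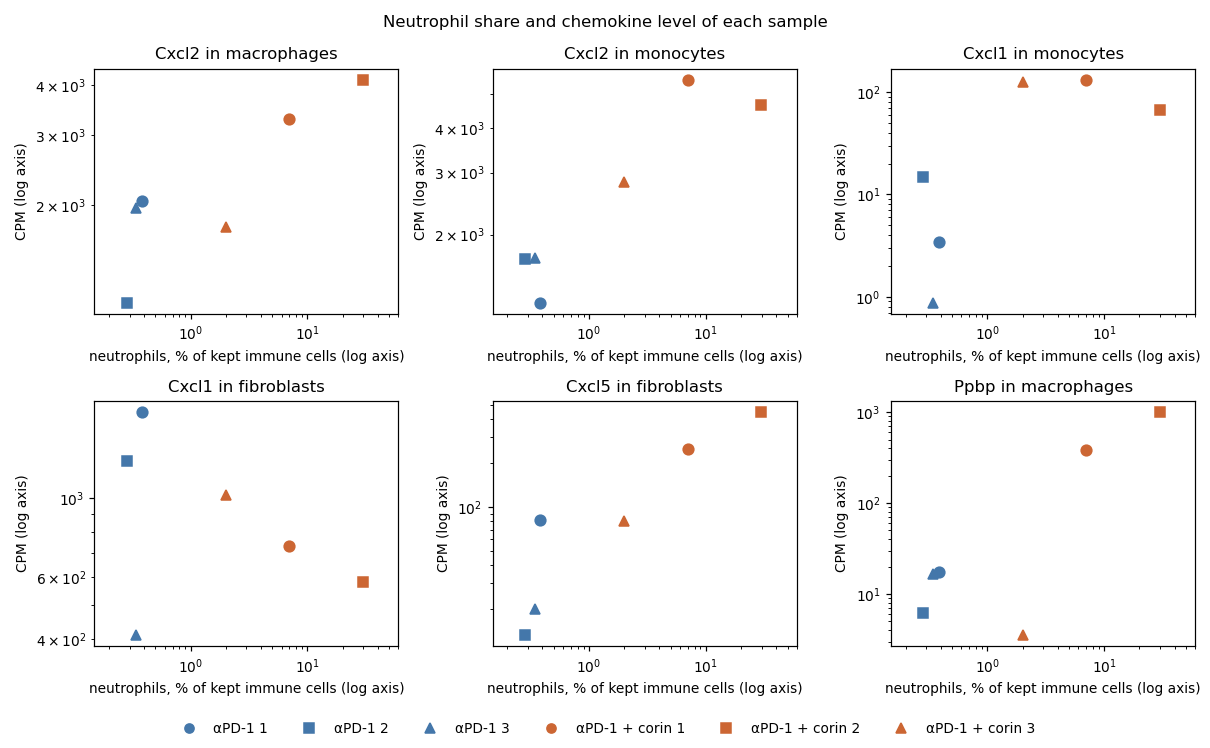
Level of a chemokine in a cell class other than neutrophils, in CPM on a log axis, against the neutrophil share of kept immune cells in percent on a log axis, with 1 point per sample. The 3 αPD-1 samples sit under 0.4% neutrophils and the 3 αPD-1 + corin samples between 2.01% and 29.9%; no correlation is given because the groups do not overlap on the share.

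Beside the neutrophil share, the chemokine levels of other cells fell into different orders. Within the αPD-1 + corin group, replicate 2 had the most neutrophils, then replicate 1, then replicate 3. Cxcl2, Cxcl3, Cxcl1 and Ppbp in macrophages and Cxcl5 in fibroblasts followed this order, Cxcl5 with 447, 248 and 80.0 CPM. So did the summed neutrophil markers, with 1779, 1215 and 737 CPM in macrophages and 469, 318 and 78.2 CPM in fibroblasts. The part of neutrophil RNA in these orders was not tested. Cxcl1 in fibroblasts had the opposite order, with 580, 734 and 1016 CPM. Cxcl2 and Cxcl1 in monocytes and Pf4 in macrophages were highest in replicate 1. Replicate 3 had 2.01% neutrophils, above all αPD-1 samples, while its macrophages had less Ppbp, Pf4 and Cxcl3 than those of every αPD-1 sample and its monocytes had 124 CPM of Cxcl1, above all of them. With 3 samples per group no relation can be tested within a group.

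Other genes of the pathway were read from 5 lists. Of the 9 receptors and adhesion molecules through which neutrophils answer other attractants, Fpr1, a formyl peptide receptor, rose in macrophages (12.9, 10.7 and 17.2 CPM against 61.9, 65.4 and 65.7 CPM, log2 fold change 2.41, SE 0.18, edgeR, adjusted p = 0.00246) and in monocytes (3.00, SE 0.53, edgeR, adjusted p = 0.0146). The integrin chain Itgb2 rose in monocytes (0.87, SE 0.12, edgeR, adjusted p = 0.00419). Of the 9 growth and induction signals, 5 were tested in monocytes. Il1a and Il1b, the IL-1 cytokines that induce these chemokines, rose there by 1.99 (SE 0.38, edgeR, adjusted p = 0.0239) and 0.60 (SE 0.14, edgeR, adjusted p = 0.0453). Of the 6 receptor partners and decoys, 2 were tested in monocytes, and Mif, which also binds CXCR2, rose there by 0.75 (SE 0.17, edgeR, adjusted p = 0.0464). Over all genes tested, 1.73% of 7643 passed in monocytes and 0.243% of 11514 in macrophages. Neutrophil markers rose in the same monocytes, as given above. Without the cells that held an S100a8 or S100a9 UMI, an alternative chosen after seeing the data, Itgb2 passed in monocytes (0.85, edgeR, adjusted p = 0.0144) and Fpr1 in macrophages (2.40, edgeR, adjusted p = 0.00369), Il1b and Mif did not (0.66 and 0.76, edgeR, adjusted p = 0.0669 and 0.142), and Il1a and Fpr1 in monocytes no longer met the low-count filter. None of the 10 NF-κB and mRNA decay regulators and none of the 9 signal relay genes passed in any class. No gene of the 5 lists passed in neutrophils, fibroblasts, melanoma cells, T cells or the granzyme cluster. Not all of them met the low-count filter there. Of the 9 attractant receptors and adhesion molecules, 0 were tested in fibroblasts and 1 in melanoma cells, as was 1 of the 6 partners in melanoma cells. In monocytes the median log2 fold changes of the lists ran from 0.00 to 0.35, beside 0.01 over all genes tested. Summed over all barcodes, 3 genes of the lists rose and 1 fell.

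The genes with the most similar pattern were sought over 68 sums of 12 cell classes and 6 samples, by Pearson correlation of log2(CPM + 10) among 13297 genes. These sums share libraries and cell makeup, and the values are descriptive. Nearest to Cxcl2 were Nlrp3 (r = 0.940), Il1b (0.938) and Lilr4b (0.934), and nearest to Cxcl3 were Arg2 (0.886), Hcar2 (0.880) and Il1f9 (0.859). Cxcr2 was nearest to Retnlg (0.968), Mirt2 (0.963) and Il1f9 (0.962). Cxcl1 was nearest to Saa3 (0.890), Tmem119 (0.839) and Igfbp6 (0.829), and Cxcl5 to Il13ra2 (0.968), Akr1c18 (0.968) and Prg4 (0.952). Ppbp was nearest to Ccl24 (0.823), Cd163 (0.734) and Gm10522 (0.717), and Pf4 to Folr2 (0.918), Arg1 (0.90) and Mrc1 (0.895).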

How the data were processed

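The authors ran Cell Ranger 8.0 on 5′ libraries of cryopreserved, dead-cell-depleted CD45+ cells and deposited UMI counts per gene and barcode without normalization, with GRCm39 as the genome. The members and all lists were chosen with earlier results of these data known. Genes to be named were the 7 members, the 3 genes most similar to each, and the 2 list genes with the largest log2 fold change among those past the threshold in macrophages, neutrophils and monocytes. Barcodes were retained as cells between 600 and 4000 genes when mitochondrial UMIs did not exceed 10%. Scrublet marked 0 barcodes at its own threshold, so the barcodes with the highest scores were removed (0.4% per 1000 barcodes, 2002 in all). Cells were clustered with Seurat 5.3.0 (SCTransform, 2903 variable genes without markers and members, 20 principal components, Louvain resolution 0.8). The rule for names was set after seeing the data: a marker counted with a UMI in at least 10% of cells and at least 1.5 times the mean CPM of other clusters, a name needed 3 markers and either 1 of them among the 10 leading genes or 75% of its list, and 2738 mixed or unnamed cells were left without a name. UMIs were summed per sample and class with at least 10 cells and fitted with edgeR 4.0.16 (TMM, filterByExpr, quasi-likelihood test, Benjamini-Hochberg over all genes tested, threshold 0.05), which was tested on simulated data. Alternatives were DESeq2 1.42.0, RLE size factors, no low-count filter, a replicate block, other cell filters, resolution 1.2, each sample left out and, added later, 2 restricted cell sets. Intervals and floors cover counting error only. Positions were taken from GENCODE vM39, which held 31674 of the 32285 gene identifiers.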

Additional observations from a re-analysis of the deposited data

Results flagged for a closer look

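The treatment difference in Cxcl3 was larger in monocytes than in macrophages by 2.38 on the log2 scale (SE 0.26, edgeR interaction, adjusted p = 0.000764), and by 0.78 without the cells that held an S100a8 or S100a9 UMI (edgeR, adjusted p = 0.790). The neutrophil markers summed to 490 to 605 CPM in the monocytes of the αPD-1 samples and 1181 to 4374 CPM in those under the combination with corin. The difference in Cxcl3 was larger in neutrophils than in macrophages by 1.98 (SE 0.40, edgeR interaction, adjusted p = 0.000494), by 1.04 without αPD-1 + corin replicate 3 (edgeR, adjusted p = 0.171) and by 1.18 without αPD-1 replicate 3 (edgeR, adjusted p = 0.324). With any other sample left out it ran from 2.04 to 2.70, and it was 2.41 without the macrophages that held an S100a8 or S100a9 UMI. The treatment difference in Pf4 was larger in neutrophils than in macrophages by 3.16 (SE 0.72, edgeR interaction, adjusted p = 0.00471), from 3 Pf4 UMIs in all in the neutrophils of the αPD-1 samples. It did not pass with RLE size factors (2.75, edgeR, adjusted p = 0.0555), without αPD-1 replicate 1 (2.69, edgeR, adjusted p = 0.203) or without αPD-1 replicate 3 (2.54, edgeR, adjusted p = 0.158). These 3 results were taken up because the same contrast gave different effects in 2 cell classes by a test of the difference itself.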

How the results depend on the processing

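The classes rest on clusters and on few neutrophils in the αPD-1 samples, several calls sit near the threshold, and the cause of each change below was not tested. The calls of Cxcl1 and Cxcl2 in monocytes passed in all settings that were run. Without a low-count filter the members that passed numbered 3 in neutrophils, 6 in macrophages, 4 in monocytes, 4 in fibroblasts, 2 in melanoma cells and 4 in the granzyme cluster, and 2 in the interaction of monocytes and macrophages, where 166 of 22284 genes passed. For the classes the share of all genes that passed in this setting is not given, so these counts are no result about the members. By DESeq2 the members that passed numbered 1 in neutrophils (as did 2.20% of all genes tested), 1 in macrophages (2.22%), 0 in fibroblasts (3.84%), 1 in melanoma cells (0.074%) and 6 in all barcodes (13.1%), and with RLE size factors 0 in all barcodes. When 1 sample was left out the members that passed ran from 0 to 1 in neutrophils, 0 to 7 in macrophages, 2 to 5 in monocytes, 0 to 2 in fibroblasts, 0 to 1 in melanoma cells, 1 to 2 in the granzyme cluster and 0 to 6 in all barcodes, with the highest count in each without αPD-1 + corin replicate 3. Of all genes tested without that replicate, 1.36% passed in neutrophils, 22.3% in macrophages, 7.17% in monocytes and 13% in fibroblasts. The share was 0.0794% in melanoma cells, 0.474% in the granzyme cluster and 13.2% in all barcodes. For the other samples left out it is not given, so these ranges are no result about the members. In the interaction tests the members that passed ran from 0 to 2 for neutrophils and from 1 to 2 for monocytes. Among all genes, from 24 of 10833 to 199 of 11720 passed for neutrophils and from 2 of 10455 to 367 of 10484 for monocytes. A lower limit of 200 genes gave 2 in the granzyme cluster and 2 in T cells, no doublet removal gave 1 in T cells and 0 in fibroblasts, and no upper limit gave 0 in fibroblasts. The share of all genes that passed is not given for these cell filters either, so these counts are no result about the members. Leaving out cells with an S100a8 or S100a9 UMI, added after seeing the data, gave 0 in fibroblasts, in the granzyme cluster and in the interaction of monocytes.

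The replicate numbers did not pair the samples (correlations of same-numbered deviations from −0.16 to 0.10). With the replicate block 2 members passed in the granzyme cluster, where Pf4 had 2.13 (edgeR, adjusted p = 0.0224), 3 in monocytes and 2 in all barcodes. The share of all genes that passed with the block is not given, so these counts are no result about the members.

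Thinned to 1000 UMIs, the shares of cells with a UMI in the αPD-1 + corin samples were 99.2% for Cxcl2, 54.0% for Cxcl3 and 20.7% for Cxcr2 in neutrophils and 30.8% for Cxcl1 and 10.99% for Cxcl5 in fibroblasts. Unthinned they were 99.6%, 68.8%, 38.0%, 51.4% and 21.4%, and 57.1% for Cxcl2 and 61.2% for Pf4 in macrophages and 18.3% for Cxcl2 in the granzyme cluster.

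The sign turned only for differences that had not passed. Leaving out 1 sample moved Cxcl2 from −0.030 to 0.99 in neutrophils and from −0.44 to 0.67 in fibroblasts (negative without αPD-1 replicate 3 in both, and in fibroblasts also without αPD-1 + corin replicate 2, −0.15), and Pf4 from −2.48 to 1.27 in melanoma cells (positive without αPD-1 replicate 1 or αPD-1 + corin replicate 3). It moved the neutrophil minus macrophage difference from −1.52 to 2.83 for Cxcl1 and from −0.60 to 0.72 for Cxcl2, and the monocyte minus macrophage difference for Ppbp from −3.40 to 0.41. With RLE size factors the neutrophil minus macrophage difference was −0.28 for Cxcl1 and −0.30 for Cxcl2, and with no low-count filter −0.041 and −0.054. With no upper limit on genes Cxcl1 in neutrophils was −0.059 and Pf4 in melanoma cells 1.73, and with no doublet removal the latter was 1.05. Cxcl2 in T cells was 0.076 at resolution 1.2, 2.45 with the 200-gene limit (edgeR, adjusted p = 1.96e-05) and 1.37 with no doublet removal (edgeR, adjusted p = 0.00201). Without S100a8 or S100a9 cells Cxcl2 in fibroblasts was −0.72 and the neutrophil minus macrophage difference for Cxcr2 was 0.52.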
